A study of Homo sapiens with 12 samples.

Results

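The activator protein 1 (AP-1) genes and their immediate-early companions were followed in human myeloma cells cultured alone or with bone marrow stromal cells. The set comprised 10 genes, FOS, FOSB, FOSL1, FOSL2, JUN, JUNB, JUND, ATF3, EGR1 and BATF, and every probe set that the platform annotation pairs with exactly 1 of these symbols. They accounted for 10 of the 15052 genes and 24 of the 54675 probe sets measured, the genes being those with a tested probe set. Of the 10 genes, 5 had 1 probe set and 5 had several. A test was made on 21 of the 24 probe sets, which exceeded the array median in at least 2 of the 12 arrays, as did 35664 probe sets in all.

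Each of 3 myeloma lines, MM.1S, MM.1R and INA-6, carried a green fluorescent protein (GFP) reporter and was grown for 24 h by itself or together with HS-5, an immortalised human marrow stromal line without GFP. MM.1S and MM.1R are sublines of the same parental myeloma, sensitive and resistant to glucocorticoids respectively, and INA-6 is a line known for its need of interleukin 6. GFP-positive cells were then sorted by flow cytometry, so that the RNA of the coculture groups came from the sorted myeloma fraction. Each of the 6 groups had 2 Affymetrix U133 Plus 2.0 arrays, described as technical replicates. Nothing in the labels says that the 2 arrays came from separate cultures, so p-values within a line or between lines measure the spread between duplicate arrays, while those of the fit common to the lines, made on duplicate means, measure the spread between the 3 lines. All groups shared the GFP transgene, the culture time and the array type.

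AP-1 is a dimer of basic leucine zipper proteins, in which a Jun protein pairs with a Fos, ATF or BATF protein. Many of these genes, with the zinc finger factor EGR1, are immediate-early genes: signals such as cytokines, growth factors and stress switch on their transcription within minutes through MAP kinases, without new protein synthesis. The JUN promoter is known to be bound by JUN-ATF2 dimers, and the EGR1 promoter by serum response factor at CArG boxes. In B-lineage cells BATF and JUNB are known for roles with IRF4, a factor that myeloma cells depend on.

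Promoter sequences were taken from RefSeq (GRCh38.p14), and are shown because they hold the letters of classical AP-1, ATF and serum response factor elements. Windows were found for 9 of the 10 genes, 10 windows in all, and both strands were searched for TGANTCA, TGACGTCA, TGACATCA and the CArG box. In the 300 bases from 250 before to 50 after the start, 5 of the 9 genes held at least 1 match. The 250 bases before the start are printed below in the direction of transcription, with the matches in capitals.
JUN (chr1:58784048-58784297, minus strand): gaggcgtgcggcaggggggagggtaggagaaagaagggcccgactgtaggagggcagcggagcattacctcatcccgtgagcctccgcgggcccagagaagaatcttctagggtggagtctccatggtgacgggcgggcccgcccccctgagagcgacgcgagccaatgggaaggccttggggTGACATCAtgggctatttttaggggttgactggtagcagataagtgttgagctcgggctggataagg
ATF3 (chr1:212565157-212565406, plus strand): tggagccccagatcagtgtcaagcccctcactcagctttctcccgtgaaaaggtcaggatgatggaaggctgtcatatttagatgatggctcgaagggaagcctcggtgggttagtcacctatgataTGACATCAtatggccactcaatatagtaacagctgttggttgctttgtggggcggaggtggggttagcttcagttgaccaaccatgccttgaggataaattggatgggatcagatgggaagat
JUND (chr19:18281623-18281872, minus strand): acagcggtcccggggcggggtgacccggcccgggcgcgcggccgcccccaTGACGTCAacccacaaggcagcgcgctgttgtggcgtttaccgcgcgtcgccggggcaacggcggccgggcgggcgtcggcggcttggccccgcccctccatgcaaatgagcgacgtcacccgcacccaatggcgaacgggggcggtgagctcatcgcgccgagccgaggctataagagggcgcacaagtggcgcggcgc
EGR1 (chr5:138465229-138465478, plus strand): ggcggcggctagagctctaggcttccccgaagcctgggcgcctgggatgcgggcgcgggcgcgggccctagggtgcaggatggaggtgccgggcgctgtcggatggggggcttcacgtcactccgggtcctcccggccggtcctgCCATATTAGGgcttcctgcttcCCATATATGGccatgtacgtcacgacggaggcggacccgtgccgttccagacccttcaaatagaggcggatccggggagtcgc
JUN and the upstream of 2 ATF3 windows shared the same octamer, TGACATCA, at 67 to 60 and at 123 to 116 bases before the start. JUND held the palindrome TGACGTCA at 200 to 193 bases before the start, and EGR1 held 2 CArG boxes, CCATATTAGG at 105 to 96 and CCATATATGG at 83 to 74. FOSL2 had the AP-1 heptamer TGACTCA just after its start. Of 35116 RefSeq promoter windows of the same length, 7.71% held TGANTCA, 1.85% TGACGTCA, 2.61% TGACATCA and 1.29% a CArG box. A match describes letters in a window and says nothing of binding in these cells.

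Values are the deposited intensities, on a linear scale with array medians of 19.78 to 24.09, and between 3.02% and 3.63% of each array's values are exactly 1. None of the 11 measured plasma and myeloma cell markers fell below the array median in any array. They were the 11 of 12 listed genes with a tested probe set, each read on the one with the highest mean level. Testing only probe sets above the median in at least 2 arrays, and that choice, favour such an outcome. The summed intensity of these markers was 15713 and 15791 in the MM.1S arrays alone and 30008 and 29277 after coculture. In MM.1R the sums were 22986 and 23780.0, then 29366 and 29944, and in INA-6 they were 25259 and 25131, then 19094 and 19345. The summed intensity of 22 measured stromal markers, such as collagens, was higher after coculture in each line: 2610.0 to 2697 became 15767 to 15862 in MM.1S, 3864 to 3911 became 28103 to 28807 in MM.1R, and 4106 to 5343 became 13977 to 14011 in INA-6. Between 6 and 9 of these 22 markers were below the array median in cells alone and between 0 and 2 after coculture. The ratio of ACTB 3′ to 5′ probe signal, a measure of RNA or cRNA integrity, was 22.4 alone and 5.10 after coculture in MM.1S and 31.4 and 5.21 in MM.1R, whereas INA-6 had 5.51 alone and 32.0 after coculture. The duplicate arrays correlated at r = 0.821 in INA-6 alone and at 0.929 to 0.982 in the other groups. The control probe set BioB averaged 1713 alone and 228 after coculture in MM.1S, 406 and 266 in MM.1R, and 2905 and 639 in INA-6. The 75th percentile of array values was 99.2 and 99.9 in MM.1S alone and 124 and 119 after coculture. In MM.1R it was 107 and 107, then 129 and 127, and in INA-6 73.6 and 69.9, then 116 and 121. These series-wide shifts accompany every comparison below, and their part in the results was not tested.

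Intensities of most of the 10 genes were higher after coculture. Differences are given on the log2(intensity + 5) scale as the estimate ± SE, with Benjamini-Hochberg adjustment over all 35664 probe sets in limma and a threshold of 0.05. The fit common to the lines uses the mean of each duplicate pair (n = 3 lines). Its p-values treat the 3 lines as independent, although MM.1S and MM.1R are sublines of the same parental myeloma. In this fit, 4 of the 24 probe sets were higher after coculture, none was lower, 17 were not called and 3 were not tested. Over all probe sets tested, 1.13% were called, 1.11% higher and 0.0168% lower. The 4 were JUN (201466_s_at, 3.30 ± 0.40, adjusted p = 0.0216; 201464_x_at, 2.46 ± 0.37, adjusted p = 0.0406), ATF3 (202672_s_at, 3.04 ± 0.38, adjusted p = 0.0238) and EGR1 (227404_s_at, 3.14 ± 0.41, adjusted p = 0.0277). A further 6 probe sets had adjusted p-values under 0.1, and 14 of the 21 had unadjusted limma p-values under 0.05, each with a higher value after coculture. Over all probe sets tested, 19.4% had such a p-value, 15% with a higher value. The median difference over the 21 was 1.92, against 0.18 over all probe sets tested. Quantile normalization moved the latter to about 0 (-0.0049) without turning the direction of any of the 4.

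Only JUN 201466_s_at was called under all 22 alternative settings that gave it a value. ATF3 202672_s_at lost its call without INA-6 alone replicate 1 (adjusted p = 0.0517 in limma), and EGR1 227404_s_at lost its call there and with a pseudocount of 20. JUN 201464_x_at lost its call in 5 of 23, which were a pseudocount of 1, quantile normalization (adjusted p = 0.0919 in limma), no filter, and leaving out either INA-6 alone array. The count of 4 became 1 without INA-6 alone replicate 1 and 9 without MM.1S alone replicate 2. It was 7 or 8 without any one of MM.1S coculture replicate 2, MM.1R alone replicates 1 and 2, MM.1R coculture replicates 1 and 2, and INA-6 coculture replicate 1.

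**Figure D1:**
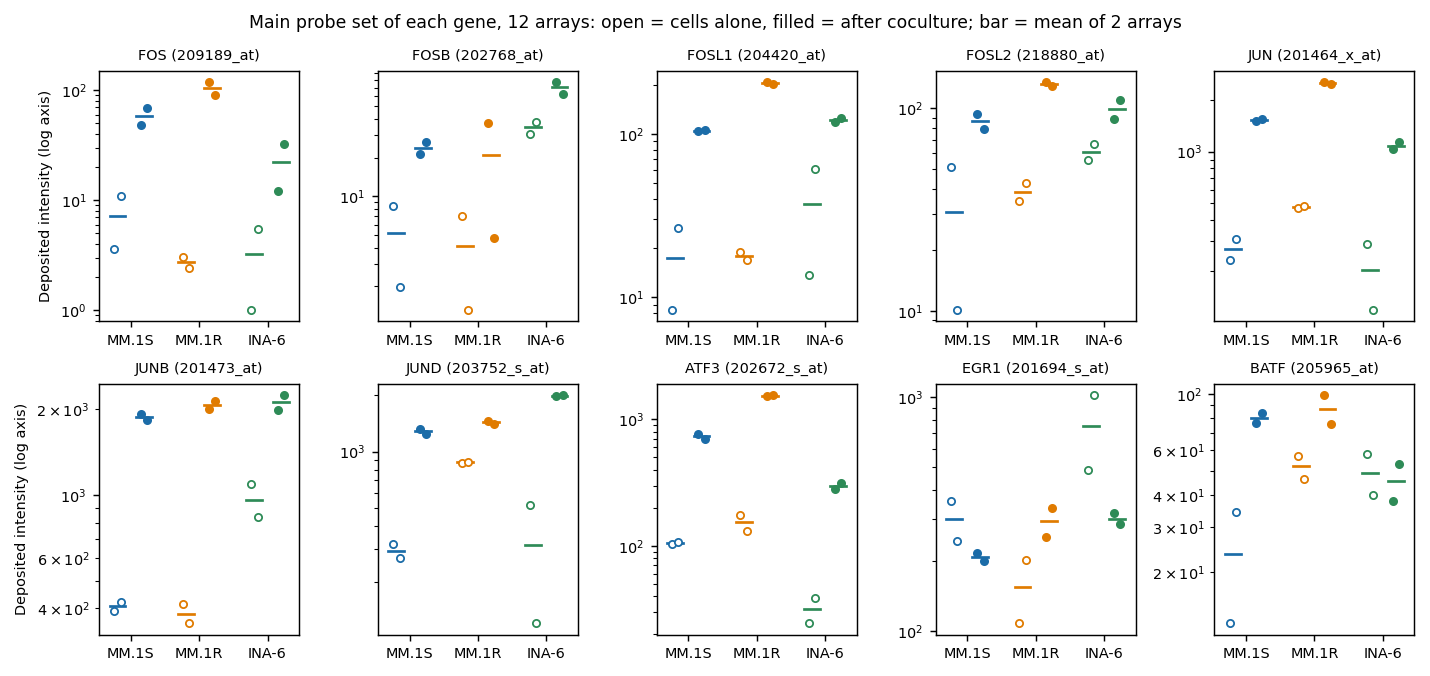
Deposited intensity (log axis) of the main probe set of each of the 10 genes in the 12 arrays, by line; open points are cells alone, filled points are cells after coculture, and bars are means of 2 arrays. JUN rises from between 119 and 483 in cells alone to between 1040.2 and 2549.9 after coculture, and for EGR1 201694_s_at the filled points lie below the open ones in MM.1S and INA-6.

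Within single lines, with the spread taken over all 12 arrays, the calls were more numerous, as they were for the whole array. In MM.1S, 15 of the 24 probe sets were higher and 1 was lower, against 20.4% higher and 8.98% lower over all probe sets tested (29.3% called). In MM.1R, 12 were higher and none lower, against 10.5% and 3.48% (14% called), and the limma count of falls at an unadjusted p under 0.05 among the 24 was also 0. In INA-6, 12 were higher and 3 lower, against 35.2% and 12.5% (47.7% called). After quantile normalization, the calls over all probe sets were 5860 higher and 4334 lower in MM.1S in place of 7264 and 3201, 2651 and 1988 in MM.1R in place of 3738 and 1240, and 9816 and 6331 in INA-6 in place of 12552 and 4474. The MM.1S count of 16 calls was 10 without MM.1S coculture replicate 2. At least 1 probe set was higher for 9 of the 10 genes in MM.1S, 7 in MM.1R and 8 in INA-6. The share of all 15052 genes with at least 1 such probe set was not computed. Genes with several probe sets, 5 of the 10, reach it more easily, so these gene counts are descriptions. In each of the 3 lines, 10 probe sets of 7 genes were higher: FOS, FOSL1, FOSL2, JUN (3 probe sets), JUNB, ATF3 and EGR1 (2 probe sets). Over all probe sets tested, 5.29% met that condition. In bulk RNA of a sorted population, a change in the share of cells of a type and a change in RNA per cell cannot be told apart.

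JUN, the central Jun subunit that binds DNA with any Fos partner, rose by a similar fold in each line on its main probe set, 201464_x_at. In cells alone it read 232 and 311 in the MM.1S arrays, 468 and 483 in MM.1R and 289.8 and 119 in INA-6. After coculture it read 1505 and 1555 (MM.1S), 2549.9 and 2473 (MM.1R), and 1040.2 and 1132 (INA-6). All 6 coculture arrays were above all 6 arrays of cells alone, and the order MM.1R, MM.1S, INA-6 held after coculture with no overlap, whereas MM.1S and INA-6 overlapped in cells alone. The fold of mean intensities was 5.64 in MM.1S, 5.28 in MM.1R and 5.31 in INA-6, with log2 differences of 2.49 ± 0.36, 2.39 ± 0.36 and 2.51 ± 0.36 (limma adjusted p = 0.00134, 0.0037 and 0.000741). The suffix _x_at is the manufacturer's mark for a probe set in which some probes can match other sequences.

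The other JUN probe sets repeated this in MM.1S and MM.1R, and one of them did not in INA-6. Probe set 201466_s_at read 34.3 and 25.2 in MM.1S alone and 330.3 and 337 after coculture, 31.4 and 40.9, then 557 and 552, in MM.1R, and 31.5 and 11.4, then 168 and 169, in INA-6, so the groups did not overlap in any line. Probe set 213281_at read 35.4 and 33.7 in MM.1S alone and 150.3 and 179 after coculture, 67.7 and 47.1, then 215 and 262, in MM.1R, and 21.9 and 17.9, then 143 and 151, in INA-6, again with no overlap. Its log2 differences were 2.09 (MM.1S), 1.98 (MM.1R) and 2.62 (INA-6), each called. Probe set 201465_s_at read 70.6 and 106 in MM.1S alone and 315 and 312 after coculture, and 111 and 74.04 then 644 and 641 in MM.1R. The INA-6 arrays moved oppositely, from 797 and 945 to 435 and 465. That fall was called (-0.94 ± 0.26, limma adjusted p = 0.0165), but not without INA-6 alone replicate 2, without either INA-6 coculture array or with only the 4 INA-6 arrays (adjusted p up to 0.0964). Among the 4 JUN probe sets, 201465_s_at alone set INA-6 cells without stroma above all MM.1S and MM.1R arrays.

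**Figure D2:**
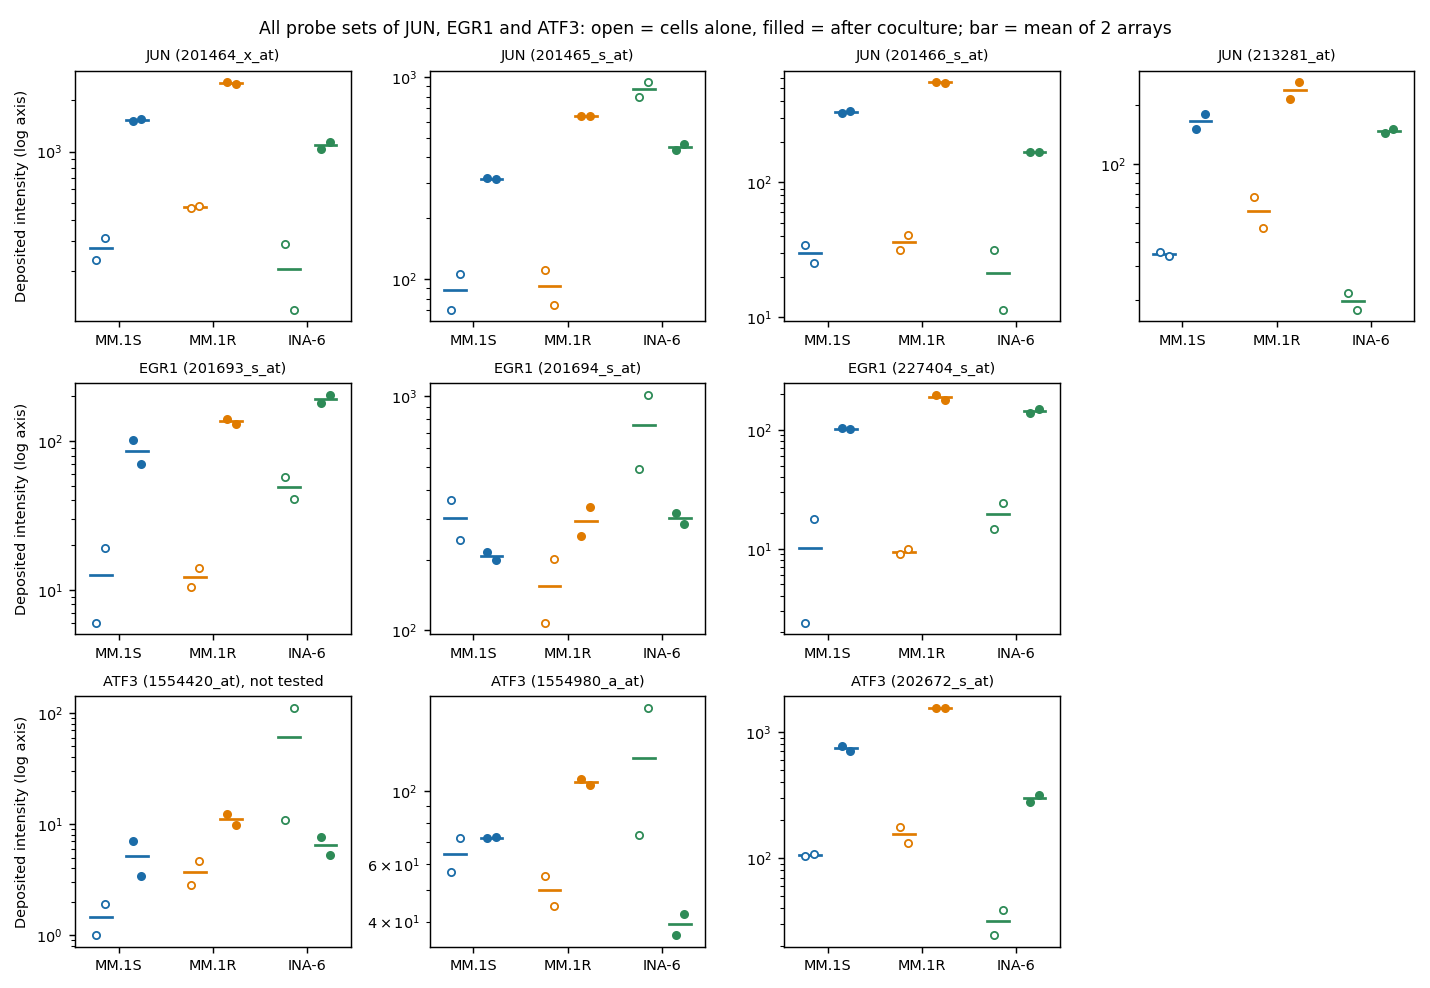
Deposited intensity (log axes, one scale per panel) of every JUN, EGR1 and ATF3 probe set by line; open points are cells alone, filled points are cells after coculture, bars are means of 2 arrays, and 1 ATF3 probe set is marked as not tested. In INA-6, the filled points lie below the open points for JUN 201465_s_at, EGR1 201694_s_at and ATF3 1554980_a_at, and above them for the other tested probe sets of these genes.

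JUNB, a Jun protein with weaker transactivation than JUN and a partner of BATF in lymphocytes, rose in each line. It read 392 and 421 in MM.1S alone, 413 and 354 in MM.1R alone and 1093 and 835 in INA-6 alone. After coculture, the values were 1933 and 1838 (MM.1S), 2005 and 2132 (MM.1R), and 1993 and 2239 (INA-6). INA-6 alone stood above both MM.1 lines alone, while the coculture arrays of INA-6 and MM.1R overlapped. The differences were 2.20 ± 0.20 in MM.1S, 2.42 ± 0.20 in MM.1R and 1.14 ± 0.20 in INA-6 (limma adjusted p = 0.000153, 0.000178 and 0.00194; 0.0766 in INA-6 with only its 4 arrays). The common fit gave 1.92 ± 0.43 and did not call it (adjusted p = 0.0961).

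JUND, the Jun protein that many resting cells hold at a steady level, rose in 2 lines on its main probe set, 203752_s_at. The MM.1S arrays read 319 and 269 alone and 1326 and 1239 after coculture (2.11 ± 0.54, limma adjusted p = 0.0189). The INA-6 arrays read 514 and 119 alone, a wide gap between duplicates, and 1988 and 2003 after coculture (2.98 ± 0.54, limma adjusted p = 0.00231). Without INA-6 alone replicate 2, the lower of that pair, the INA-6 difference was 1.95, and with only the 4 INA-6 arrays it was not called (adjusted p = 0.0659). In MM.1R, which had the highest values in cells alone, 871 and 877, the coculture arrays read 1456 and 1409.6. The groups did not overlap there, and the difference was not called (0.71 ± 0.54, limma adjusted p = 0.495). The MM.1S call was lost without any one of the 4 MM.1S arrays (adjusted p up to 0.0927). Of the other JUND probe sets, 229117_s_at ranged from 7.13 to 49.99 over the 12 arrays with no call in any line, and 203751_x_at (1 to 14.2) and 214326_x_at (1.46 to 17.3) stayed below the array median in every array.

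FOS, the prototype Fos protein with a short-lived messenger, was near the low end of the scale in cells alone. Its single probe set read 3.62 and 10.9 in MM.1S, 3.07 and 2.41 in MM.1R and 1 and 5.47 in INA-6, all below the array median. After coculture it read 48.7 and 68.7 (MM.1S), 119 and 91.3 (MM.1R), and 12.02 and 32.5 (INA-6). The groups did not overlap in any line, and the coculture values ran, from high to low, in the order MM.1R, MM.1S, INA-6, also with no overlap. Differences were 2.43 ± 0.46, 3.82 ± 0.46 and 1.67 ± 0.46 (limma adjusted p = 0.00491, 0.00127 and 0.0171), and 2.64 ± 0.50 in the common fit (adjusted p = 0.0712, not called). The pseudocount of 5 holds down differences from such low values. The INA-6 difference was 1.10 without INA-6 coculture replicate 2 and lost its call (adjusted p = 0.122), as it did without INA-6 alone replicate 1 and with only the 4 INA-6 arrays.

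FOSL1, the FRA-1 protein, a Fos relative that lacks the FOS transactivation domain and is prominent in mesenchymal and invasive cells, rose in each line. It read 8.37 and 26.5 in MM.1S alone, 18.9 and 16.96 in MM.1R alone and 13.7 and 60.6 in INA-6 alone. After coculture, the values were 104 and 106 (MM.1S), 207 and 202 (MM.1R), and 118 and 124 (INA-6). The 6 coculture arrays were all above the 6 others, and those of MM.1R were the highest. Differences were 2.42 ± 0.56, 3.19 ± 0.56 and 1.85 ± 0.56 (limma adjusted p = 0.013, 0.0075 and 0.0267). Each of these calls ended when certain single arrays were left out. The difference fell to 0.94 without INA-6 alone replicate 1 and to 1.80 without MM.1S alone replicate 1. In the other such cases the estimate stayed close to the full one. It was 2.43 and 2.40 without MM.1S coculture replicates 1 and 2, and 1.88 and 1.81 without INA-6 coculture replicates 1 and 2. In MM.1R it was 3.13 to 3.21 without alone replicate 2 or either coculture array. The INA-6 call also ended after quantile normalization and with only its 4 arrays (limma adjusted p up to 0.13034).

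FOSL2, the FRA-2 protein, had 5 probe sets that did not move together. Probe set 228188_at read 21.4 and 15.98 in MM.1S alone and 144 and 141 after coculture, 53.6 and 36.5, then 249.8 and 258, in MM.1R, and 7.38 and 1, then 232 and 222, in INA-6. No groups overlapped, and INA-6 spanned the widest range, from the lowest values in cells alone to coculture values between those of MM.1S and MM.1R. The differences were 2.65 ± 0.34, 2.39 ± 0.34 and 4.75 ± 0.34, each called under all alternatives (limma adjusted p = 0.000684, 0.00261 and 2.36e-05). The size in INA-6, measured from values near the low end of the scale, ran from 3.36 to 5.80 over the alternatives. Probe set 225262_at rose in MM.1S (1.59) and MM.1R (2.51) and was not called in INA-6 (0.84, limma adjusted p = 0.0741). Its MM.1S call ended without MM.1S coculture replicate 2, where the difference was 1.49. It also ended with only the 4 MM.1S arrays (limma adjusted p = 0.056).

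The main FOSL2 probe set by mean level, 218880_at, read 51.2 and 10.1 in MM.1S alone, 34.8 and 42.7 in MM.1R alone and 55.3 and 66.8 in INA-6 alone. After coculture it read 93.3 and 79.5 (MM.1S), 135 and 129 (MM.1R), and 89.1 and 109 (INA-6), higher in all 3 lines with no overlap. Its call in MM.1S (1.65 ± 0.51, limma adjusted p = 0.0419) held in 8 of 23 alternatives and became 0.70 without MM.1S alone replicate 2. Neither MM.1R (1.65) nor INA-6 (0.66) was called. Probe set 218881_s_at fell in MM.1S (-0.94, from 45.3 and 30.7 to 19.9 and 14.6) and rose in INA-6 (0.85, from 14.4 and 11.8 to 26.7 and 28.2). Both calls sat at the threshold, with limma adjusted p-values of 0.0469 and 0.0464, and held in 10 of 22 and 10 of 21 alternatives. Every array of 218881_s_at was below 46. Probe set 205409_at ranged from 5.29 to 112 and was not called in any line.

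FOSB, whose truncated product accumulates after lasting stimulation, was not called in any coculture comparison. Its probe set read 8.40 and 1.98 in MM.1S alone and 21.4 and 26.4 after coculture. MM.1R gave 6.99 and 1.31, then 36.8 and 4.79. INA-6 gave 30.5 and 38.03, then 77.2 and 62.9. The groups overlapped in MM.1R and not in the other lines, with differences of 1.58 ± 0.64, 1.22 ± 0.64 and 0.93 ± 0.64 (limma adjusted p = 0.104, 0.29 and 0.263).

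ATF3, a stress-induced ATF family member that pairs with Jun proteins, rose in each line on its main probe set, 202672_s_at. The values in cells alone were 104 and 108 in MM.1S, 175 and 132 in MM.1R and 24.4 and 38.8 in INA-6. After coculture they were 773 and 701 (MM.1S), 1528 and 1549 (MM.1R), and 279.5 and 317 (INA-6). The order MM.1R, MM.1S, INA-6 held with no overlap both in cells alone and after coculture. The fold of mean intensities was 6.96, 10.02 and 9.44, with log2 differences of 2.74 ± 0.24, 3.30 ± 0.24 and 3.08 ± 0.24 (limma adjusted p = 0.000135, 9.25e-05 and 3.53e-05), called in every alternative for each line. This is one of the genes whose promoter above holds TGACATCA.

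A second ATF3 probe set, 1554980_a_at, gave another picture. It read 56.6 and 71.97 in MM.1S alone and 72.05 and 72.3 after coculture, and 55.2 and 44.5 then 109 and 105 in MM.1R, neither of them called. In INA-6 it fell from 73.7 and 180.2 to 36.3 and 42.2 (-1.45 ± 0.36, limma adjusted p = 0.0111). Without INA-6 alone replicate 2 that fall was -0.83, and without INA-6 coculture replicate 1 or with only the 4 INA-6 arrays it was not called (adjusted p up to 0.120). The third, 1554420_at, was not tested, and its INA-6 alone duplicates read 10.9 and 111, with the other 10 arrays between 1 and 12.5.

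BATF, which pairs with Jun proteins and IRF4 in lymphocytes, rose in MM.1S. Its probe set went from 12.6 and 34.4 to 76.7 and 83.7 there (1.69 ± 0.38, limma adjusted p = 0.011), with no overlap. Without MM.1S alone replicate 1 the difference was 1.11, and the call ended without either MM.1S coculture array or with only the 4 MM.1S arrays. MM.1R went from 57.2 and 46.5 to 98.5 and 76.4 and INA-6 from 58.02 and 40.2 to 37.8 and 53.04. Neither was called (0.70 and -0.10), and the INA-6 groups overlapped.

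EGR1, a zinc finger factor outside the AP-1 family that is switched on by the same signals, had 2 probe sets that rose in each line. Probe set 227404_s_at read 2.39 and 17.8 in MM.1S alone, 8.98 and 9.95 in MM.1R alone and 14.7 and 24.2 in INA-6 alone. After coculture it read 103 and 101 (MM.1S), 198 and 179.6 (MM.1R), and 139 and 149 (INA-6). The order MM.1R, INA-6, MM.1S after coculture had no overlap, and all 6 coculture arrays were above all arrays of cells alone. The differences were 3.05 ± 0.45, 3.74 ± 0.45 and 2.64 ± 0.45 (limma adjusted p = 0.00153, 0.00133 and 0.00186). Probe set 201693_s_at read 6.02 and 19.1 in MM.1S alone and 102 and 70.1 after coculture, 10.4 and 13.97, then 141 and 131, in MM.1R, and 57.05 and 40.6, then 181 and 205, in INA-6. It was called in each line (2.46, 3.04 and 1.89).

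The EGR1 probe set with the highest mean level, 201694_s_at, did not follow. It read 359 and 243 in MM.1S alone and 216 and 200.4 after coculture, lower without overlap but not called (-0.50 ± 0.41). In MM.1R, 108 and 201 became 253 and 337, higher without overlap but not called (0.96 ± 0.41). In INA-6, 489 and 1015 became 319 and 286, a called fall (-1.21 ± 0.41, limma adjusted p = 0.0396) that was -0.69 and not called without INA-6 alone replicate 2, and held in 13 of 22 alternatives. The JUN, ATF3 and EGR1 probe sets that fell in INA-6 did so in the line whose ACTB 3′ to 5′ ratio rose after coculture, and where each probe set lies on its transcript was not analysed here.

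Counted without the test, the coculture arrays lay above those of cells alone with no overlap for 18 of the 21 tested probe sets in MM.1S, 17 in MM.1R and 15 in INA-6, against 39.6%, 35.8% and 46.4% of all probe sets tested. They lay below with no overlap for 2, 0 and 3, against 31%, 26.9% and 23.4%.

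The size of the response differed between the lines for 6 of the 21 probe sets by the limma test over all 3 responses, against 32.8% of all probe sets tested. The share among the probe sets described here is thus near the background. JUNB was the only gene with a single probe set among the 6. Its response in INA-6 minus that in MM.1S was -1.06 ± 0.28 (limma adjusted p = 0.0222), and minus that in MM.1R it was -1.28 ± 0.28 (adjusted p = 0.0103), from a higher level in INA-6 alone. JUN 201465_s_at differed most, with an INA-6 response minus MM.1R response of -3.70 ± 0.36. FOSL2 228188_at responded more in INA-6 than in MM.1R, by 2.36 ± 0.48. FOSL2 218881_s_at, ATF3 1554980_a_at and EGR1 201694_s_at completed the 6. Between single pairs of lines, p-values were adjusted over all probe sets within each of the 3 pairs and not across them. There the INA-6 response was below that of MM.1R for FOS (-2.15 ± 0.65, limma adjusted p = 0.0369) and FOSL2 225262_at (-1.67 ± 0.49). It was below that of MM.1S for BATF (-1.79 ± 0.54, adjusted p = 0.0363). The limma test over all 3 responses did not call FOS (adjusted p = 0.0759), FOSL2 225262_at (0.0696) or BATF (0.0774). No probe set of the 21 differed in response between MM.1R and MM.1S after adjustment in limma, where JUN 201465_s_at had the lowest adjusted p (0.27). For single pairs of lines, the share called over all probe sets was not computed, so these pairwise calls have no background beside them. The count of 6 was 10 without INA-6 alone replicate 1, 2 without INA-6 coculture replicate 1 and 3 without INA-6 coculture replicate 2. JUNB lost its between-line call without MM.1R coculture replicate 2 or either INA-6 coculture array (limma adjusted p up to 0.0852), and ATF3 1554980_a_at without either INA-6 coculture array (adjusted p up to 0.0682).

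**Figure D3:**
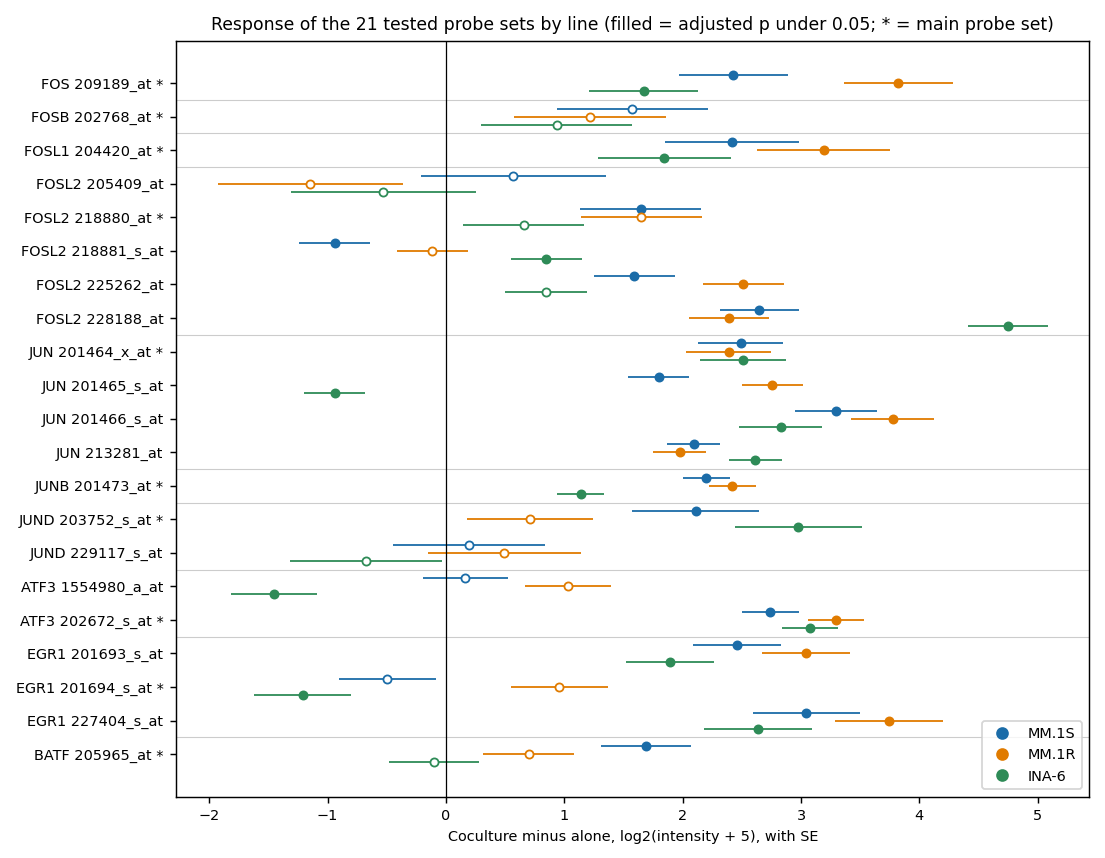
Coculture minus alone on the log2(intensity + 5) scale for each tested probe set of the 10 genes in MM.1S, MM.1R and INA-6, as estimates of the 12-array fit with their standard errors. FOSL2 228188_at in INA-6 is the highest at 4.75 and ATF3 1554980_a_at in INA-6 the lowest at -1.45.

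In cells cultured alone, none of the 21 probe sets differed between MM.1R and MM.1S after adjustment in limma, against 6.95% of all probe sets tested, 5.81% higher and 1.14% lower in MM.1R. At an unadjusted p under 0.05 there were 6, of which 5 were higher in MM.1R, against 20.7% of all probe sets tested, 14.4% higher. Among the 6 were JUND 203752_s_at (1.56), FOSL2 228188_at (1.07) and BATF (1.11). The adjusted count was 3 without INA-6 alone replicate 1 or 2 and 1 without either MM.1S alone array.

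INA-6 alone was then set against both MM.1 lines alone, averaged. It was higher for 6 and lower for 5 of the 21 probe sets, against 19% higher and 32.8% lower over all probe sets tested (51.8% called). The share called among the 21, 52.4%, is thus near the background. FOSB was higher by 2.09 ± 0.56 and JUNB by 1.27 ± 0.17 (limma adjusted p = 0.0131 and 0.000387). EGR1 was higher on 201693_s_at (1.67 ± 0.32) and on 201694_s_at (1.73 ± 0.35). Lower values were those of ATF3 202672_s_at (-1.88 ± 0.21) and FOSL2 228188_at (-1.98 ± 0.29; limma adjusted p = 0.000117 and 0.000609). JUN was lower on 201464_x_at (-0.92) and 213281_at (-0.99) and higher on 201465_s_at (3.22), so its probe sets do not give 1 direction. The count of 11 was 7 without INA-6 alone replicate 2.

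The genes around AP-1 were read on 1 probe set each, the one with the highest mean level. The lists were chosen with earlier results of these data known, so their counts are descriptions. Over all probe sets tested, 20.4%, 10.5% and 35.2% were called higher in MM.1S, MM.1R and INA-6, and 8.98%, 3.48% and 12.5% lower. In the common fit 1.11% were higher. These shares count every probe set, not 1 a gene. Of 11 other AP-1 and basic leucine zipper partners measured, 1 was higher in the common fit and none lower, with a median difference of 0.69. MAFF, a small Maf protein without a transactivation domain, was the one called, at 4.10 ± 0.45 (limma adjusted p = 0.0157), with mean intensities of 53.1 and 826 in MM.1S, 104 and 1116 in MM.1R, and 10.1 and 474 in INA-6. JDP2, a repressive Jun dimerization partner, had the next largest difference, 2.08 ± 0.39 (adjusted p = 0.069, not called), and was called in each line. Common differences ran from 2.93 to 4.10 over 2 tested probe sets of MAFF and from -0.43 to 2.08 over 2 of JDP2. By line, 4, 3 and 6 of the 11 were higher in MM.1S, MM.1R and INA-6, and none lower.

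Among 24 other immediate-early genes, 3 were higher in the common fit and none lower, with a median of 1.46. IER3, an early gene that modulates survival signals, differed by 5.24 ± 0.47 (limma adjusted p = 0.00959), the MAP kinase phosphatase DUSP1 by 3.91 ± 0.40 (adjusted p = 0.0122), and PHLDA1 by 3.33 ± 0.52 (adjusted p = 0.0437). IER3 had 1 tested probe set. Probe sets of the other genes disagreed: common differences ran from -1.33 to 3.91 over 3 of DUSP1 and from -0.52 to 3.33 over 6 of PHLDA1. DUSP1 had mean intensities of 66.6 alone and 738 after coculture in MM.1S, 49.04 and 1058 in MM.1R, and 19.2 and 390.0 in INA-6. By line, 13, 14 and 16 of the 24 were higher, against 20.4%, 10.5% and 35.2% of all probe sets tested. The orphan nuclear receptor NR4A3 was the only fall, in INA-6 (-2.42 ± 0.58).

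Of 12 MAP kinase pathway genes and ternary complex factors, none was called in the common fit by limma, 5 were higher and 0 lower at an unadjusted p under 0.05, and the median was 1.03. The largest differences were those of MAPK3, the ERK1 kinase (1.997 ± 0.60, adjusted p = 0.158 in limma), and ELK3, a ternary complex factor (1.39 ± 0.52, adjusted p = 0.224). By line, 4 were higher in MM.1S, 1 in MM.1R and 11 in INA-6, in a line where 35.2% of all probe sets were called higher.

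Of 12 textbook AP-1 target genes, 4 were higher in the common fit and none lower, with a median of 2.69. The largest differences were those of the collagenase MMP1 (8.28 ± 0.44) and the chemokine CXCL8 (7.12 ± 0.57), each with a limma adjusted p of 0.00864. By line, 9, 8 and 5 of the 12 were higher, with 1 lower in INA-6, against 20.4%, 10.5% and 35.2% higher over all probe sets tested. Stromal markers gave 9 higher of 22 in the common fit and a median of 2.37, led by COL6A2 (7.15 ± 0.44) and COL6A1 (6.75 ± 0.44), and 15, 14 and 13 by line. On the probe sets read here, COL1A1 was lower in INA-6 (-1.76 ± 0.54, limma adjusted p = 0.0274). On these probe sets, 4 of the 22, ACTA2, COL1A1, MYL9 and TAGLN, lay below 0 in the common fit, none of them called. Other probe sets went the other way: common differences ran from -0.96 to 6.69 over 5 tested probe sets of COL1A1. They ran from -0.68 to 0.87 over 2 of MYL9 and from -0.85 to 1.03 over 2 of TAGLN, while ACTA2 had 1. Among the rises, COL6A1 ran from -0.66 to 6.75 over 4 tested probe sets. Plasma and myeloma cell markers gave no call in the common fit among 11 (2 higher and 0 lower at an unadjusted limma p under 0.05), a median of 0.54, and 8, 3 and 3 higher by line, with 5 lower in INA-6. Their largest differences were IRF4 (1.36 ± 0.43) and PRDM1 (1.19 ± 0.39), neither called. Over 2 tested probe sets, IRF4 ran from -0.038 to 1.36. Fibroblast-like stromal cells are known to express FOSL1, JUN and several AP-1 targets, and how much of the rise in these genes came with stromal RNA in the sorted fraction was not tested.

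**Figure D4:**
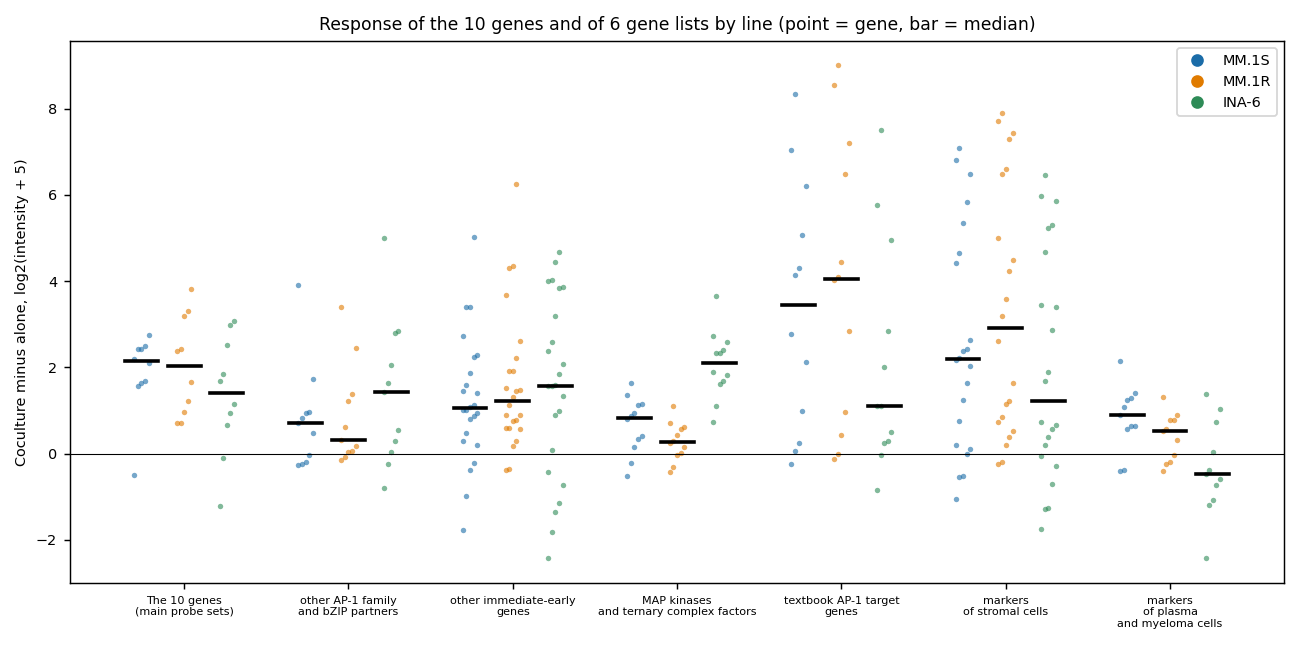
Coculture minus alone on the log2(intensity + 5) scale for the main probe sets of the 10 genes and of 6 gene lists in MM.1S, MM.1R and INA-6; each point is a gene and each bar a median. Medians of stromal markers (2.19, 2.90 and 1.21) and of textbook AP-1 targets (3.46, 4.06 and 1.10) are lower in INA-6 than in MM.1S and MM.1R.

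Likeness was measured as Pearson's r on log2 values over the 6 group means, among 15042 other genes, as a description of 6 points that share arrays. The patterns most like JUN were those of the actin crosslinker ACTN1 (r = 0.995), PBX3 and BEX3. For FOSL1 they were QSOX1 (r = 0.998), NBL1 and ITPRIP, and for ATF3 the small GTPase RHOB (r = 0.995), ZFAND2A and the collagen prolyl hydroxylase subunit P4HA2. FOS was closest to IFI44 (r = 0.996), STEAP2 and the interleukin 1 receptor IL1R1, and JUNB to NARF (r = 0.996), FAM13A and CWC25. JUND was closest to AKAP8L (r = 0.998), PDE4DIP and SETD3, and BATF to NOL11 (r = 0.999), APOL1 and CHID1. FOSB was closest to CHURC1 (r = 0.999), MTCH2 and ARHGEF6, and FOSL2 218880_at to STEAP1B (r = 0.999) and ADAM9. EGR1 201694_s_at, which fell in INA-6, was closest to SCARF2 (r = 0.996), SLC17A9 and DIO2-AS1.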

How the data were processed

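The authors deposited 1 table of linear intensity values, 54675 probe sets by 12 arrays. MAS5 is named per the submitters' processing notes and dChip per the labels' series text, so the method behind the deposited values is not settled here. Values were used as scaled by the authors, a pseudocount of 5 was added, and log2 was taken. Of all probe sets, 41097 have 1 gene symbol, 1801 several and 11777 none in the platform annotation. Control probe sets (62) and 1 probe set with a missing value were left out. Probe sets above the array median in at least 2 arrays were tested (35664). The filter can be passed through 1 group, so counts over tested probe sets are descriptions.

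limma 3.58.1 in R 4.3.3 was run in 2 fits. The common fit and the responses by line were also run on simulated data, and the other comparisons were not. That simulation used normal noise and less spread between lines than these data have, so no conclusion is drawn from it. The common fit averaged duplicates to 6 values, with line as a block (2 residual degrees of freedom). The others used group means over 12 arrays (6 residual degrees of freedom). All probe sets of the 10 genes are named, and the one with the highest mean stands for its gene. The 3 most alike genes per gene were named (1 was left out), and from each list the 2 largest changes, by the rule for called genes first. Members and lists were chosen with earlier results of these data known. The number of arrays limits the precision. Alternatives were pseudocount, scaling, filter, 1 probe set a gene, intensity trend, replicate block, unaveraged arrays, fewer lines, and each array left out.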

Additional observations from a re-analysis of the deposited data

Results flagged for a closer look

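Coculture responses differed between the 3 lines, by the limma test of the difference itself, for 6 probe sets, given here as the range of the 3 log2 responses. They are 6 of 21 tested probe sets (28.6%), against 32.8% of all probe sets tested, so the share is near the background. The range was 3.70 for JUN 201465_s_at (adjusted p = 0.000533), which rose in MM.1S and MM.1R and fell in INA-6. It was 2.48 for ATF3 1554980_a_at (adjusted p = 0.0164) and 2.17 for EGR1 201694_s_at (adjusted p = 0.0475), both called lower in INA-6 and in neither other line. It was 2.36 for FOSL2 228188_at (adjusted p = 0.0105), which rose in each line and most in INA-6. JUNB differed by 1.28 (adjusted p = 0.0171), with the smallest rise in INA-6. FOSL2 218881_s_at differed by 1.79 (adjusted p = 0.0318), with a fall in MM.1S and a rise in INA-6. Calls for JUN 201465_s_at and FOSL2 228188_at held in all 20 alternatives. Over these, the range for FOSL2 228188_at went from 1.29 to 3.31. The call held in 18 of 21 for JUNB and in 18 of 20 for ATF3 1554980_a_at, whereas that for EGR1 201694_s_at held in 9 of 21 and that for FOSL2 218881_s_at in 11 of 20.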

How the results depend on the processing

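Called log2 coculture differences of the 10 genes, common and by line, kept their sign in every alternative; single differences between lines alone were not recomputed. Of 26 reversals, all in differences that were not called, 5 came from settings other than leaving out an array: JUND 229117_s_at in the common fit was -0.0080 with a pseudocount of 20 and -0.0199 after quantile normalization, ATF3 1554980_a_at in MM.1S was -0.0228 after quantile normalization, and without all INA-6 arrays ATF3 1554980_a_at was 0.60 and EGR1 201694_s_at 0.23 in the common fit. The cause was not tested. With 1 array left out, JUND 229117_s_at ran from -0.28 to 0.28 in the common fit, -0.18 to 0.57 in MM.1S, -0.31 to 1.29 in MM.1R and -1.52 to 0.17 in INA-6. FOSL2 205409_at ran from -0.79 to 0.055 in the common fit, -2.42 to 0.12 in MM.1R and -1.28 to 0.22 in INA-6. FOSL2 218881_s_at ran from -0.17 to 0.028 in the common fit and -0.41 to 0.18 in MM.1R, ATF3 1554980_a_at from -0.29 to 0.12 in the common fit, and BATF from -0.34 to 0.14 in INA-6.

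Counts of called probe sets of the 10 genes moved as follows. The common count of 4 was 7 with an intensity trend, 14 with 12 unaveraged arrays, also 14 with the replicate block added to the unaveraged arrays, and 16 without all INA-6 arrays. With 1 probe set a gene, which leaves fewer to test, counts were 8 in MM.1S, 5 in MM.1R, 7 in INA-6, 5 for INA-6 against the MM.1 lines alone and 2 for the difference between lines. INA-6 had 7 with only its 4 arrays. MM.1R against MM.1S alone had 1 with a pseudocount of 20 and 3 without all INA-6 arrays. Leaving out 1 array gave 1 to 9 in the common fit, 10 to 16 in MM.1S, 11 to 14 in MM.1R, 10 to 17 in INA-6, 0 to 3 for MM.1R against MM.1S alone, 7 to 16 for INA-6 against the MM.1 lines alone and 2 to 10 for the difference between lines.

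Over all probe sets, the common fit's 402 calls became 207 with a pseudocount of 20, 182 after quantile normalization, 176 without the filter, 10024 with unaveraged arrays, 8938 with the replicate block added to unaveraged arrays, and 8150 without all INA-6 arrays. MM.1R against MM.1S alone had 2478 calls, 1533 without the filter and 6894 without all INA-6 arrays. MM.1R had 4978, and 9947 without all INA-6 arrays. INA-6 had 17026, and 7074 with only its 4 arrays. With 1 probe set a gene the counts were 4858 in MM.1S, 2417 in MM.1R and 7860 in INA-6, and 1446, 8365 and 5379 for MM.1R against MM.1S, INA-6 against both and the difference between lines. Leaving out 1 array gave 193 to 594 in the common fit, 5954 to 16523 in MM.1S, 2025 to 11001 in MM.1R, 11764 to 22021 in INA-6, 0 to 8265 for MM.1R against MM.1S alone and 7099 to 19998 for the difference between lines. Replicate numbers were not taken to pair arrays. Differences of replicate 1 from 2 correlated between groups at -0.52 to 0.58, over 0.1 in 6 of 15 pairs. Between alone and coculture of the same line, r was 0.38 in MM.1S, 0.58 in MM.1R and 0.078 in INA-6. Between MM.1S and MM.1R groups it was -0.34 to -0.52. Tests within a line ignored such shared shifts, and a block common to all lines cannot represent shifts of opposite sign. That block moved no other count of the 10 genes' probe sets by over 1.5 times. Values near or below the array median limit the low FOSL2 and JUND probe sets. FOS in cells alone (1 to 10.9) and FOSB in MM.1S and MM.1R alone (1.31 to 8.40) are limited by values near the low end of the scale. So is FOSL2 228188_at in INA-6 alone (1 and 7.38). EGR1 227404_s_at was below the array median in MM.1S and MM.1R alone (2.39 to 17.8), which limits its differences there.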
